A study of Mus musculus with 22 samples.

Results

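The clustered protocadherins are described here through every array probe whose gene name in the scanner files begins with Pcdha, Pcdhb or Pcdhg. The rule found 45 of the 41174 non-control probes. They carried 31 gene names and lay in 3 neighbouring clusters, with 6 probes of 3 alpha genes, 29 probes of 22 beta genes and 10 probes of 6 gamma genes. A RefSeq table of mouse genes lists 58 genes in these clusters (14 alpha, 22 beta and 22 gamma), so the array named every beta gene but only a part of the alpha and gamma genes. No probe carried the name of a C-type isoform (Pcdhac1, Pcdhac2, Pcdhgc3, Pcdhgc4 or Pcdhgc5).

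RNA of whole mouse brain was hybridized to 22 dual-colour arrays, each holding 1 animal labelled knockout for Agtr2 and 1 control animal. Agtr2 is the X-linked gene of the type 2 angiotensin II receptor. The E15 (embryonic day 15) arrays numbered 14, with 8 animals labelled knockout and 6 controls. The P1 (postnatal day 1) arrays numbered 8, with 4 animals labelled knockout. The labels number the E15 controls but not the P1 controls. At P1 each knockout replicate was taken to have its own control animal, 4 in all, which the labels do not state. The strain, the form of the Agtr2 allele and the genotype of the controls are not given in the sources used here. The E15 controls serve several knockout replicates, so E15 replicates 1, 4 and 7 and replicates 2, 3 and 8 share control animals.

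Clustered protocadherins are cadherin-like adhesion proteins of the cell surface that neurons use to tell their own processes from those of other neurons. In the alpha and gamma clusters each variable exon has its own promoter and codes for the outer domains, the membrane span and a short inner stretch, and it is spliced to constant exons shared by all isoforms of the cluster. Beta genes are single-exon genes with no constant part, and their coding sequences are much alike. Single neurons switch on a few alternate isoforms of each cluster, a choice that involves promoter methylation, CTCF and cohesin, whereas the C-type isoforms are widely active.

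What a probe reads follows from this layout. Of the 45 probes, 37 were taken as probes of a single gene. Among these, A_52_P204809 (Pcdhb13) and A_52_P252953 (Pcdhb19) had no RefSeq transcript listed, so their place in an exon was not shown. Another 6 lay in the shared constant exons, where they read every isoform of the cluster, C-type isoforms included. The 6 were named after single genes in the files (Pcdha9 for 2 alpha probes, Pcdha6 for the other, and Pcdhga7 for all 3 gamma probes), but each was listed against 4 RefSeq transcripts. The remaining 2, under the names Pcdhb12 (A_51_P213737) and Pcdhga11 (A_51_P424369), lay on the strand opposite to the genes. By the coordinates in the files, on a build they do not state, the alpha probes spanned chromosome 18 from 37178811 to 37411145, the beta probes 37490851 to 37744797 and the gamma probes 37887779 to 38065507. One alpha shared probe, A_52_P632669, spanned 3111 bases and so crosses an intron, while the usual probe length was 60 bases. Because beta genes are similar paralogues, a beta probe may also bind RNA of a neighbour, and this was not tested.

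Levels are log2 intensities after background correction, and changes are log2 differences with their standard error (SE). A probe was tested where it was well above background in at least 50% of the channels of an age. At E15 39 of the 45 probes passed and at P1 40. Both Pcdhb1 (A_51_P468912) and Pcdhb2 (A_52_P538363) passed at P1 only, and the opposite-strand Pcdhga11 probe at E15 only. The 4 that passed at neither age were Pcdhb9 (A_51_P483878), Pcdhb11 (A_52_P146865), the opposite-strand Pcdhb12 probe and 1 of the Pcdhga4 probes (A_52_P65480).

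Over the arrays, 74.9% to 89.3% of spots at E15 and 71.3% to 89.5% at P1 were well above background. Agtr2 RNA did not separate the groups: knockout over control was -0.39 at E15 (SE 0.31, n = 8, limma adjusted p = 0.797) and 0.11 at P1 (SE 0.08, n = 4, adjusted p = 0.683). The animals are therefore called "labelled knockout". The ages were scanned on separate days (3 at E15, 1 at P1) and with different versions of the scanner software (8.1.1.1 and 8.5.1.1), so age and scanning batch cannot be told apart in any comparison of levels between the ages. Among E15 controls, animal 1 stood apart in markers of skeletal muscle, tissue from outside the brain: the summed log2 level of the 10 genes was 15.51 there, 12.50 in animal 2 and 10.50 to 11.87 in the others.

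In control animals, probes in the constant part of the alpha cluster were higher at P1 than at E15. Of the single gamma exons 4 were lower, but only Pcdhga4 still passed with 75th percentile scaling. Age and scanning batch cannot be told apart here. Beta genes were nearly level on the scale used here. Of the 40 probes tested between the ages, 4 were higher at P1 and 5 lower by limma at an adjusted p under 0.05. Over all 35873 probes tested 13.9% were higher and 21.1% lower, so the members' shares were near that background. All 4 higher probes belonged to the alpha cluster, 1 lower probe to the beta cluster and 4 to the gamma cluster. With each channel scaled to its 75th percentile the split was 4 higher and 1 lower. The median change was 0.52 over 6 alpha probes, -0.01 over 26 beta probes and -0.18 over 8 gamma probes, beside -0.07 over all probes. With 75th percentile scaling the beta median turned to 0.11, and with the scanner's processed signals the median over all probes was -0.18. In whole brain, more cells of a type and more RNA per cell cannot be told apart.

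**Figure D1:**
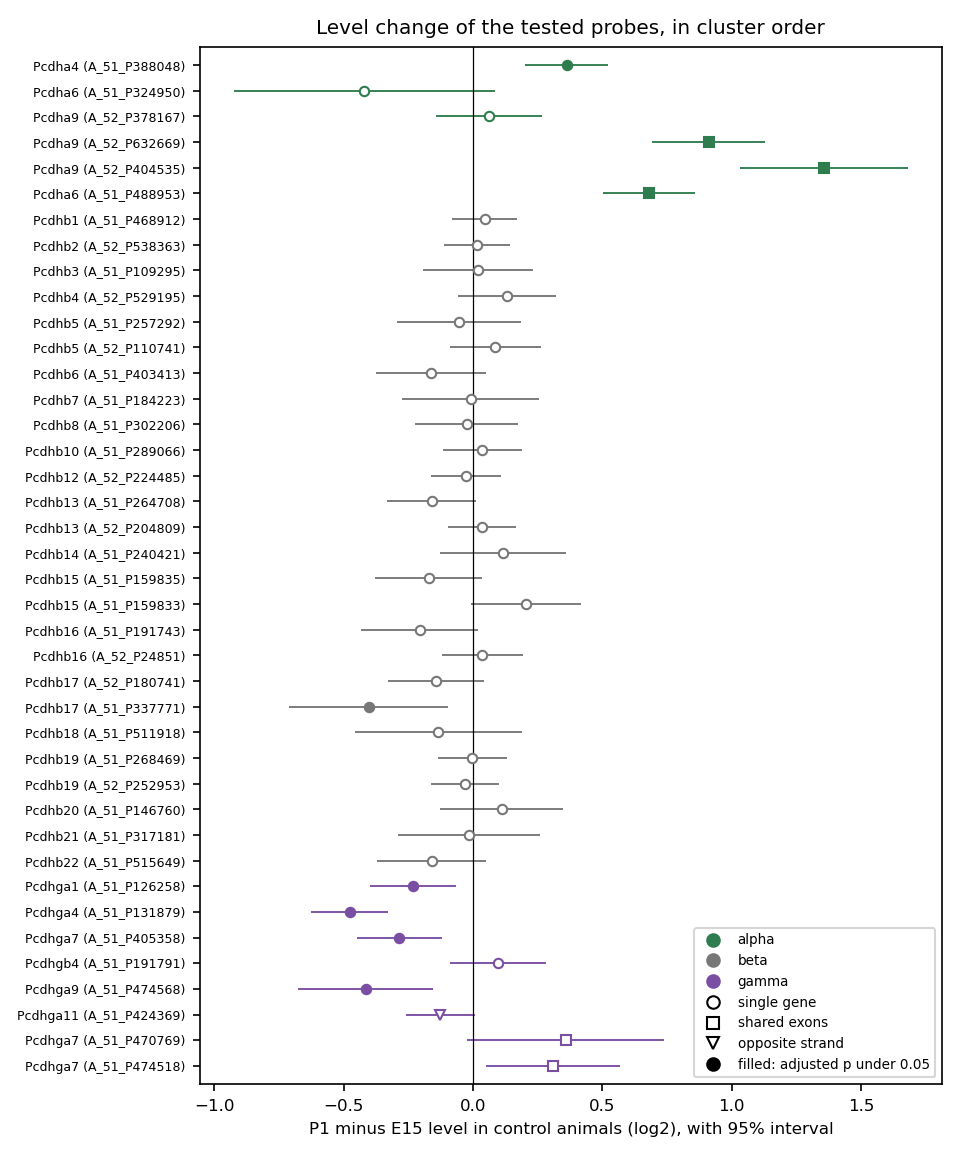
Difference between P1 and E15 control animals (x axis, log2, with its 95% interval) for each of the 40 tested probes, ordered by position in the alpha, beta and gamma clusters; filled symbols had an adjusted p under 0.05 and squares mark shared constant exons. The 3 alpha squares lie right of 0 (0.68 to 1.36), the beta probes scatter around 0, and the single-gene gamma probes lie mostly left of it.

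The 3 probes in the alpha constant exons, which are shared by all alpha isoforms, rose. Their changes were the highest among the members tested on this scale, but with the scanner's processed signals the Pcdha4 exon (1.07) was above A_51_P488953 (0.81). Probe A_52_P404535 (chr18:37408827-37408886) lay between 8.98 and 9.65 in the 6 E15 controls (median 9.27) and at 10.48, 10.64, 10.93 and 10.53 in the 4 P1 controls. Every P1 animal lay above every E15 animal, and the change was 1.36 (SE 0.15, fold 2.56, adjusted p = 0.000117). Probe A_52_P632669, across the constant-exon junction, lay between 7.58 and 8.11 at E15 (median 7.88) and at 8.89, 8.76, 8.74 and 8.77 at P1. Its P1 values were all above its E15 values, with a change of 0.91 (SE 0.10, fold 1.88, adjusted p = 0.000112). Probe A_51_P488953 (chr18:37411086-37411145), at the far end of the constant part, ran from 8.28 to 8.67 at E15 (median 8.45) and read 9.17, 9.26, 9.09 and 9.06 at P1. The ages were again separate, and this change was 0.68 (SE 0.08, fold 1.60, adjusted p = 0.000199). The 3 probes, at different places in the constant part, thus gave changes from 0.68 to 1.36, all in the same direction.

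Single alpha exons did not follow a common course. The Pcdha4 exon (A_51_P388048) rose: it lay between 6.06 and 6.39 at E15 (median 6.18) and at 6.55, 6.46, 6.60 and 6.60 at P1, without overlap, a change of 0.36 (SE 0.07, adjusted p = 0.00357). The Pcdha6 exon (A_51_P324950) ran from 7.68 to 8.91 at E15 (median 8.31) and read 7.93, 7.77, 7.67 and 8.13 at P1. Its E15 animals overlapped the P1 range, and the change was -0.42 (SE 0.23, adjusted p = 0.177; 95% interval -0.93 to 0.09). For the Pcdha9 exon (A_52_P378167) the values were 7.60 to 7.84 at E15 (median 7.75) and 8.12, 7.69, 7.69 and 7.74 at P1. Only P1 control 1 lay above the E15 range, and the change was 0.06 (SE 0.09, adjusted p = 0.640). The array named 3 of the 14 alpha genes, so which isoforms carried the higher level at the constant exons was not measured.

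**Figure D2:**
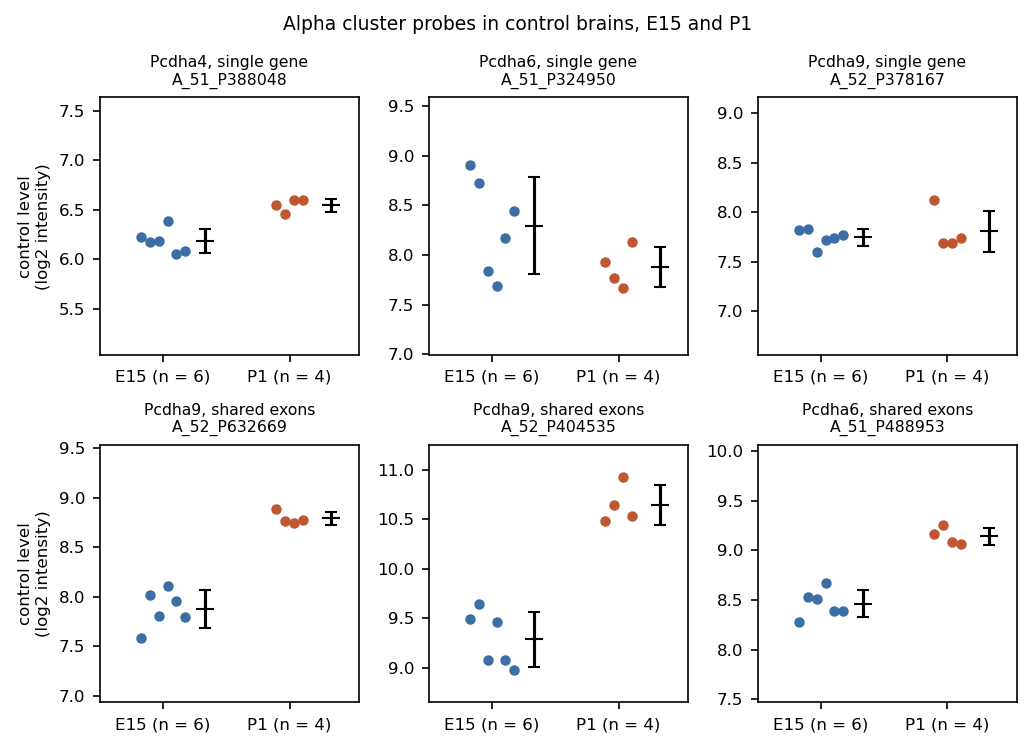
Control level (y axis, log2 intensity) of each alpha probe in the 6 E15 and 4 P1 control animals, with mean and SD beside the points. The upper panels are single exons and the lower panels the constant exons; in all 3 lower panels the P1 animals lie above every E15 animal, as they do for Pcdha4.

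On the scale used here, beta genes were close to level between the ages in control animals. Of 26 tested probes 1 passed: Pcdhb17 probe A_51_P337771 ran from 7.40 to 8.04 at E15 (median 7.67) and read 7.30, 7.47, 7.39 and 6.91 at P1. The groups overlapped, and the change was -0.40 (SE 0.14, adjusted p = 0.0442). The call was lost without any 1 of E15 controls 1, 2, 3 or 4 or of P1 controls 1, 3 or 4 (adjusted p = 0.0620 to 0.133), and the other Pcdhb17 probe (A_52_P180741) gave -0.14 (adjusted p = 0.209). For the other 25 beta probes the difference ran from -0.21 to 0.20, with 95% bounds from -0.46 to 0.42 and a median size of 0.05. The lowest adjusted p among them belonged to Pcdhb15 (A_51_P159833, 0.20, adjusted p = 0.122) and Pcdhb13 (A_51_P264708, -0.16, adjusted p = 0.136). Without P1 control 1 that Pcdhb15 probe passed, at 0.31 (adjusted p = 0.0168). A second Pcdhb15 probe (A_51_P159835), which shares 20 bases with it, gave -0.17 (adjusted p = 0.175). Pcdhb20 (A_51_P146760) had a mean level of 7.48 (SD 0.22) at E15 and 7.59 (SD 0.07) at P1. Pcdhb2 averaged 5.96 (SD 0.07) at E15 and 5.98 (SD 0.04) at P1. For Pcdhb13 (A_52_P204809) the means were 5.96 (SD 0.06) and 5.99 (SD 0.08), and the ages overlapped for all 3 probes. Probes of 6 beta genes came in pairs, and 4 of the pairs (Pcdhb5, Pcdhb13, Pcdhb15 and Pcdhb16) had changes of opposite sign, none past the threshold.

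Of 5 single gamma exons tested, 4 were lower at P1. The Pcdhga4 exon (A_51_P131879, chr18:37911277-37911336) lay between 6.96 and 7.28 at E15 (median 7.19) and at 6.72, 6.63, 6.70 and 6.68 at P1. No P1 animal reached the E15 range, and the change was -0.48 (SE 0.07, adjusted p = 0.000528). The Pcdhga7 exon (A_51_P405358) ran from 6.68 to 7.00 at E15 (median 6.81) and read 6.64, 6.48, 6.53 and 6.57 at P1. The gap between the ages was small but complete, with a change of -0.28 (SE 0.07, adjusted p = 0.0133). Pcdhga9 (A_51_P474568) lay between 6.46 and 7.01 at E15 (median 6.72) and at 6.18, 6.59, 6.32 and 6.17 at P1, where animal 2 overlapped the E15 range. Its change was -0.42 (SE 0.12, adjusted p = 0.0200), and the call was lost without P1 control 1 (adjusted p = 0.0606) or 4 (adjusted p = 0.0637). Pcdhga1 (A_51_P126258) fell by 0.23 (SE 0.08, adjusted p = 0.0350) from an E15 range of 6.67 to 6.97 to 6.52, 6.61, 6.71 and 6.49. That call was lost without any 1 of E15 controls 2, 3, 5 or 6 or of P1 controls 1, 2 or 4 (adjusted p = 0.0575 to 0.0955). With 75th percentile scaling the changes of Pcdhga7, Pcdhga9 and Pcdhga1 were -0.18, -0.27 and -0.10 and did not pass, whereas Pcdhga4 passed at -0.37 (adjusted p = 0.0233). The 1 B-type exon tested, Pcdhgb4 (A_51_P191791), gave 0.10 (SE 0.08, adjusted p = 0.393).

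The gamma constant exons did not share this direction. Probe A_51_P470769 ran from 10.23 to 10.87 at E15 (median 10.59) and read 10.86, 11.19, 10.42 and 11.15 at P1, a change of 0.36 (SE 0.17, adjusted p = 0.130). The probe A_51_P474518, which shares 40 bases with it, ran from 10.88 to 11.26 (mean 11.02) and read 11.31, 11.25, 11.68 and 11.07, a change of 0.31 (SE 0.12, adjusted p = 0.0617). Both overlapped between the ages. The remaining constant-exon probe, A_52_P667913, was marked as an outlier spot on 7 of 8 P1 arrays and was left untested. With such spots kept it read 6.45 to 6.92 at E15 and 8.34 to 8.60 at P1, a change of 1.73 (adjusted p = 1e-07), far from the other constant-exon probes. The opposite-strand Pcdhga11 probe gave -0.13 (SE 0.06, adjusted p = 0.126).

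**Figure D3:**
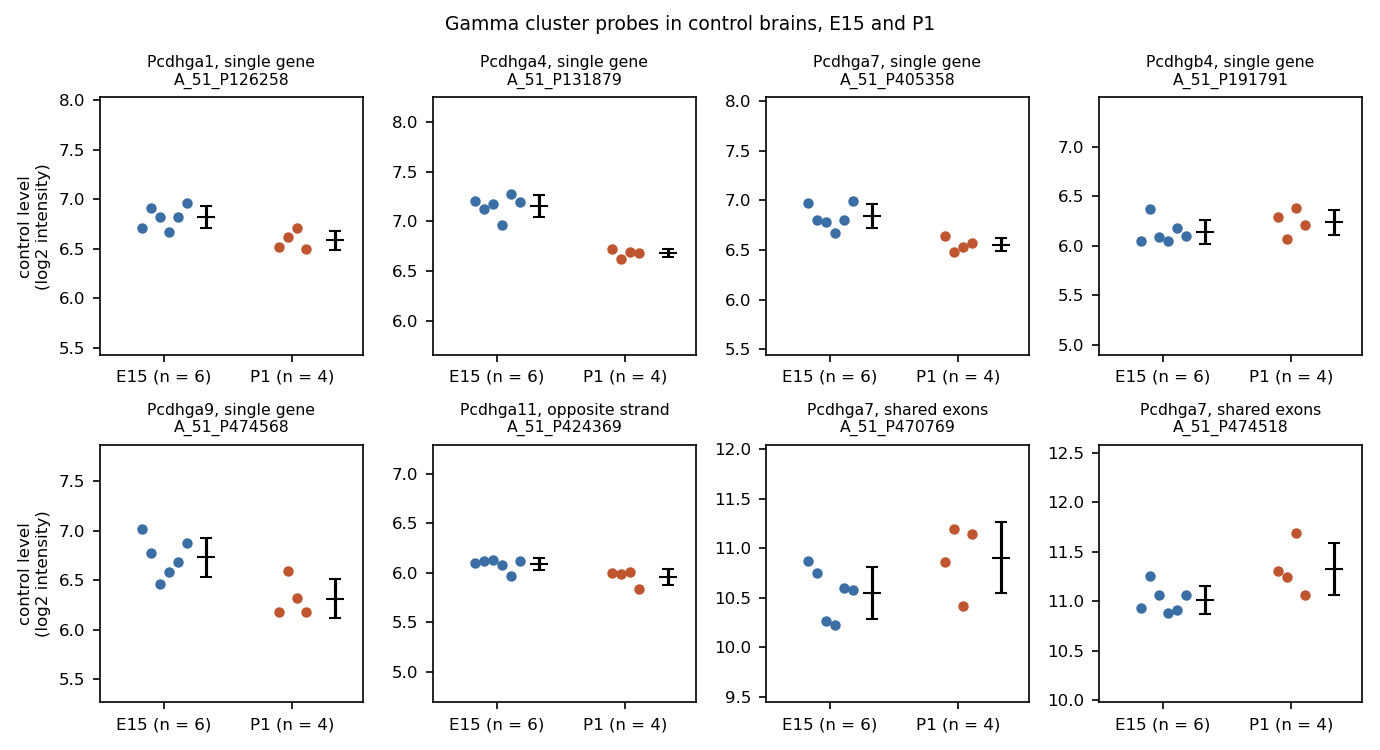
Control level (y axis, log2 intensity) of the 8 gamma probes tested between the ages, in 6 E15 and 4 P1 control animals, with mean and SD. Pcdhga4 and Pcdhga7 single-exon values do not overlap between the ages, while both constant-exon probes overlap and have the higher mean at P1.

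Counting probes whose control animals did not overlap, 4 of 6 alpha probes lay wholly above at P1, 0 of 26 beta probes on either side, and 2 of 8 gamma probes wholly below. Over all probes 10.9% lay wholly above and 16.2% wholly below. The animals labelled knockout, on the same arrays, gave 4 higher and 4 lower member probes, of which 3 and 2 were the same probes as in the controls. These were the alpha constant-exon probes A_52_P404535 (0.81, adjusted p = 0.00196), A_52_P632669 (0.63, adjusted p = 0.0209) and A_51_P488953 (0.57, adjusted p = 0.00551), with Pcdhga4 (A_51_P131879, -0.41, adjusted p = 0.00158) and Pcdhga9 (-0.41, adjusted p = 0.0309). The calls not shared with the controls were Pcdhgb4 (0.27, adjusted p = 0.0293), higher at P1, and the beta probes Pcdhb16 (A_51_P191743, -0.37, adjusted p = 0.00706) and Pcdhb6 (A_51_P403413, -0.32, adjusted p = 0.0312), lower. In these animals the Pcdha4 exon gave 0.13 (adjusted p = 0.253), and for A_52_P632669 the lowest P1 animal, at 8.08, lay below the highest E15 animal. The shares of all probes called in the animals labelled knockout are not given here. Their counts of 4 and 4 are therefore not set against a background. Both channels share arrays, normalization and scanning batch, so calls repeated in these animals are not independent of those in the controls.

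Dim probes understate their changes on this scale, since the background correction adds 50 units to every signal, which sets a floor at a log2 level of 5.64. With an offset of 10 in place of 50, the change of Pcdha4 was 0.70, of Pcdhga4 -0.72 and of Pcdhga9 -0.77, while the brighter A_52_P404535 gave 1.41. Dim beta probes widened too. With the scanner's processed signals Pcdhb13 (A_51_P264708) gave -0.53 (limma adjusted p = 0.0777). Pcdhb1 gave 0.47 (adjusted p = 0.0567), but it was well above background in only 35.7% of E15 channels. It was tested through P1 alone, where 75% were, so the filter favours a rise and no conclusion is drawn from its value. Among beta probes only Pcdhb17 (A_51_P337771, -0.65, adjusted p = 0.0341) passed with the processed signals.

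Cell type markers moved between the ages as well. Of 11 tested markers of postmitotic neurons 7 were higher at P1 and 0 lower, and their summed log2 level was 14.50 to 15.11 in E15 controls and 15.27 to 15.47 in P1 controls. Of 10 astrocyte markers 8 were higher (12.41 to 13.04 against 14.17 to 14.73). Among 12 markers of neural progenitors 7 were lower and 1 higher, with sums of 13.94 to 14.18 and 14.05 to 14.56. The higher one, Fabp7, had mean levels of 12.47 at E15 and 13.99 at P1, the highest of the 12 at P1. It thus weighs most in the P1 sums, while 11 of the 12 markers had changes below 0. For meninges and fibroblasts 5 of 10 were lower, and the sums were 12.16 to 15.75 and 11.65 to 12.11. Skeletal muscle had 1 of 9 lower and sums of 10.50 to 15.51 and 10.04 to 10.63. The part of these cell types in the protocadherin changes was not tested. Without E15 controls 1 and 2, the animals with the highest muscle and meninges sums, 5 members were higher and 2 lower. The share of all probes called without these animals is not given here. These counts are therefore not set against a background and do not bear on the part of the cell types.

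The other genes around the clusters were taken from 3 lists. Of 12 non-clustered protocadherins, adhesion proteins each made from a gene of its own, 3 were higher at P1 (Pcdh17 1.16, Pcdh9 0.93 and Pcdh19 0.70) and 2 lower (Pcdh1 -0.68 and Pcdh18 -0.52), with a median of -0.02. Of 24 regulators of promoter choice and chromatin 1 was higher and 12 lower, with a median of -0.32. The higher one was Dnmt3a (0.53, SE 0.08, adjusted p = 0.00100), a methyltransferase that sets new DNA methylation. The lower ones included Ctcf (-0.84, SE 0.17, adjusted p = 0.00389), which binds cluster promoters and enhancers and anchors DNA loops, and the cohesin subunits Smc1a (-0.75), Stag1 (-0.59) and Stag2 (-0.68). The cohesin subunits Smc3 (-0.19, limma adjusted p = 0.391) and Rad21 (-0.35, adjusted p = 0.122) did not pass. Rest (-1.05), a repressor of neuronal genes, Ehmt1 (-0.91), a histone methyltransferase, Zfp143 (-0.57), a factor found at loop anchors, and Lbr (-0.55), a protein of the nuclear envelope, were lower too. Of 22 partners and signalling genes 4 were higher and 4 lower, with a median of 0.12. Celsr1 fell (-1.43, SE 0.15, adjusted p = 7.82e-05) and so did Celsr3 (-0.56), while Celsr2 rose (0.88); these are large cadherins of the planar polarity pathway. Cyfip2 (0.92), a subunit of the WAVE complex that drives actin branching, rose as well.

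Between animals labelled knockout and controls no member probe passed the threshold at either age. At E15 0 of 39 tested members had an adjusted p under 0.05, beside 0% of 34174 probes, and the members' lowest adjusted p was 0.747. At an unadjusted p under 0.05 were 5 of 39 members, 4 higher and 1 lower, beside 6.60% of all probes. At P1 0 of 39 members passed, beside 0% of 33437 probes, with a lowest adjusted p of 0.448. There 4 of 39 members, all lower, had an unadjusted p under 0.05, beside 9.83% of all probes. Cluster medians at E15 were 0.10 for alpha (5 of 6 above 0), 0.04 for beta (20 of 24 above 0) and -0.01 for gamma (3 of 9 above 0), beside -0.00 over all probes. At P1 they were -0.17, 0.00 and 0.03, beside 0.01. No 95% interval of a tested member reached beyond 0.54 in size at E15 or beyond 0.71 at P1.

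**Figure D4:**
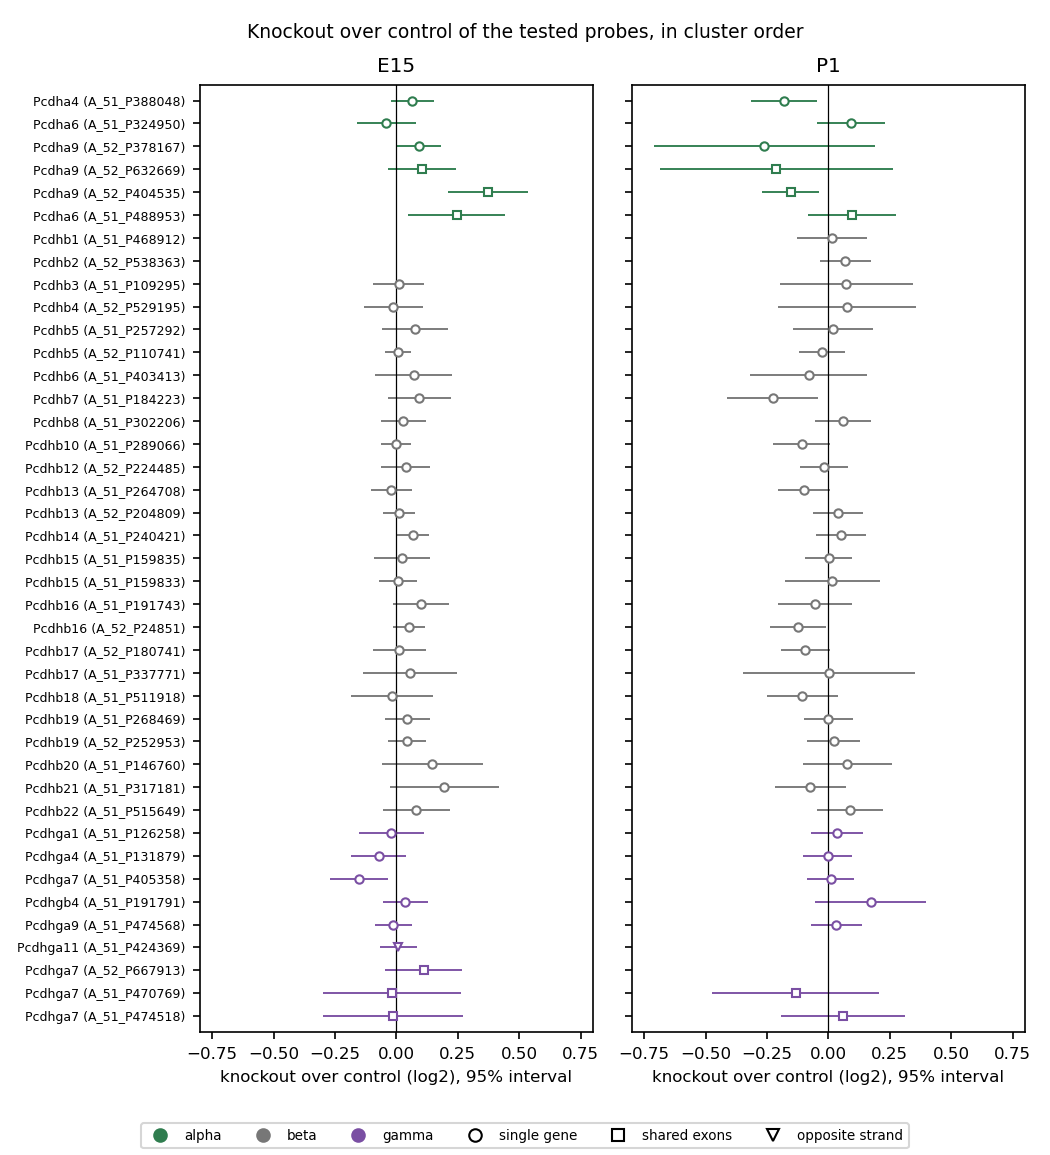
Knockout over control (x axis, log2, with its 95% interval) of each tested member probe at E15 (left, 39 probes) and P1 (right, 39 probes), in cluster order; all symbols are open because no adjusted p was under 0.05. At E15 A_52_P404535 has the highest value (0.37), and at P1 it lies at -0.15.

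At E15 the members farthest from 0 were the alpha constant-exon probes A_52_P404535 and A_51_P488953. Some E15 replicates share control animals, so the replicates counted here are not all independent. Probe A_52_P404535 was above 0 in 8 of 8 replicates, from 0.10 to 0.78 with a median of 0.37. Its mean was 0.37 (SE 0.07, 95% interval 0.21 to 0.54, unadjusted p = 0.000619 in limma, adjusted p = 0.747). By scan day, replicates 1 to 4, scanned on 1 day, averaged 0.35 and replicates 5 to 8, scanned on the other days, 0.39. Probe A_51_P488953 was above 0 in 7 of 8 replicates, from -0.32 in replicate 8 to 0.51 with a median of 0.29, and averaged 0.25 (SE 0.09, adjusted p = 0.747). The junction probe A_52_P632669 averaged 0.10 (SE 0.06, adjusted p = 0.751), with 6 of 8 replicates above 0. The median of the 3 probes was above 0 in all 8 replicates (0.10 to 0.51). At P1 it was -0.06, -0.12, -0.21 and 0.12.

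Values of the alpha cluster at P1 were mostly below 0. Probe A_52_P404535 read -0.06, -0.12, -0.23 and -0.21 (mean -0.15, SE 0.05, adjusted p = 0.452), below 0 in 4 of 4 replicates. The Pcdha4 exon read -0.31, -0.05, -0.20 and -0.16 (mean -0.18, SE 0.05, adjusted p = 0.448), also below 0 in all 4. The Pcdha9 exon and the junction probe A_52_P632669 were lowest in replicate 1, at -0.94 and -0.81, and read -0.18, -0.04 and 0.12 and -0.22, -0.21 and 0.39 in the other replicates. The same replicate had the lowest median of postmitotic neuron markers (-0.44, against -0.23, -0.10 and 0.15) and of astrocyte markers (-0.76, against 0.24, -0.67 and -0.00). Forebrain markers had medians of 0.84, -0.55, 0.80 and -0.17 in P1 replicates 1 to 4, and hindbrain and cord markers -0.50, 0.35, -0.97 and 0.63, so replicates 1 and 3 were high in the first and low in the second. Over all replicates the postmitotic neuron markers had a median of 0.15 at E15 (8 of 11 above 0) and -0.18 at P1 (8 of 11 below 0). Their median difference between the ages was -0.23 (10 of 11 below 0), beside -0.28 for the alpha probes. Neural progenitor markers had medians of -0.02 at E15 and -0.01 at P1. The part of these markers in the alpha values was not tested. Probe A_51_P488953 and the Pcdha6 exon averaged 0.10 and 0.09 (adjusted p = 0.689 and 0.621).

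**Figure D5:**
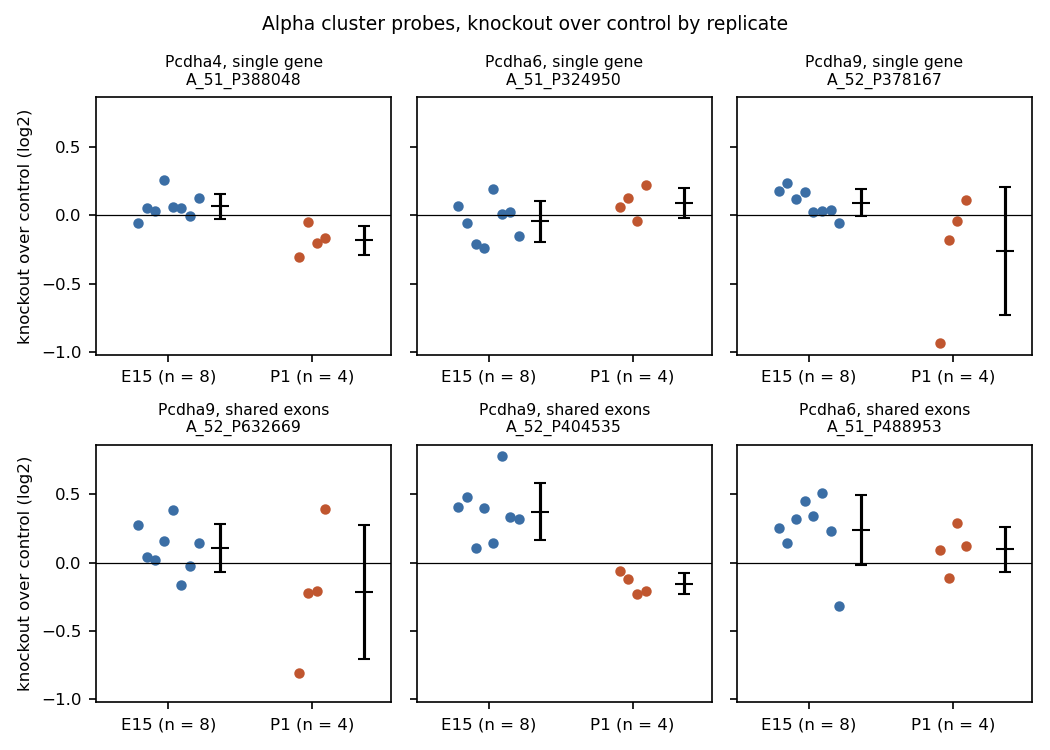
Knockout over control (y axis, log2) of each alpha probe in the 8 E15 and 4 P1 replicates, with mean and SD. For A_52_P404535 every E15 point lies above 0 and every P1 point below it; for Pcdha9 and A_52_P632669 the lowest P1 point is replicate 1.

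The difference between the ages in the knockout effect was tested directly. Of 37 members tested at both ages 0 passed, beside 0% of 31462 probes, and 6 had an unadjusted p under 0.05, all with the lower value at P1, beside 4.93% of all probes. For A_52_P404535 the P1 effect was lower than the E15 effect by 0.53 on the log2 scale (contrast -0.53, SE 0.11, unadjusted p = 0.000363 in limma, adjusted p = 0.928). The Pcdha4 exon gave -0.25 (SE 0.07) and the Pcdha9 exon -0.35 (SE 0.16), with adjusted p = 0.928 for both. Among beta genes Pcdhb7 (A_51_P184223) gave -0.32 (SE 0.10), Pcdhb16 (A_52_P24851) -0.18 (SE 0.05) and Pcdhb10 (A_51_P289066) -0.11 (SE 0.05), each with adjusted p = 0.928. Gamma contrasts were nearest the threshold for Pcdhga7 (A_51_P405358, 0.16), Pcdhgb4 (0.14) and Pcdhga4 (A_51_P131879, 0.07), at adjusted p = 0.928, 0.928 and 0.939. These contrasts use the same E15 and P1 replicates as the values at each age and are not independent of them.

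Beta and gamma members stayed within a narrow range in both knockout comparisons. At E15 the beta values ran from -0.02 to 0.20 and the gamma values from -0.15 to 0.11. The beta members with the lowest p were Pcdhb14 (A_51_P240421, 0.07, SE 0.03), Pcdhb16 (A_51_P191743, 0.10, SE 0.05) and Pcdhb21 (A_51_P317181, 0.20, SE 0.10), with adjusted p of 0.747 to 0.750. The Pcdhga7 exon (A_51_P405358) averaged -0.15 (SE 0.05, adjusted p = 0.747), with 7 of 8 replicates negative and a range of -0.42 to 0.03. At P1 Pcdhb7 read -0.16, -0.18, -0.48 and -0.09 (mean -0.23, SE 0.07, adjusted p = 0.463). Pcdhb16 (A_52_P24851) read -0.13, -0.21, -0.12 and -0.03 (mean -0.12, SE 0.05, adjusted p = 0.491), and Pcdhb17 (A_52_P180741) averaged -0.10 (SE 0.04, adjusted p = 0.518). The P1 gamma values ran from -0.13 (A_51_P470769) to 0.17 (Pcdhgb4, SE 0.09, adjusted p = 0.579).

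The overlapping gamma constant-exon probes did not track each other between replicates. In E15 replicate 1 A_51_P470769 read -0.54 and A_51_P474518 0.39, and in replicate 3 they read 0.30 and -0.27. In replicate 6 both were low, at -0.53 and -0.46. Their SDs over the 8 replicates were 0.37 and 0.38, beside 0.18, 0.21 and 0.26 for the alpha constant-exon probes A_52_P632669, A_52_P404535 and A_51_P488953. Their knockout means at E15, -0.02 and -0.01 (SE 0.12 and 0.12, adjusted p = 0.979 and 0.983), are correspondingly wide.

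None of the 3 surrounding lists held a gene past the threshold in a knockout comparison. At E15 their medians were 0.07 for the non-clustered protocadherins, 0.06 for the chromatin regulators and 0.14 for the partners. The lowest unadjusted p belonged to Pcdh19 (0.32, SE 0.08) and Pcdh9 (0.23, SE 0.09), to Tet3 (0.31, SE 0.08) and Pds5b (0.20, SE 0.07), and to Celsr3 (0.21, SE 0.07) and Marcks (0.37, SE 0.18). At P1 the genes with low unadjusted p included Pcdh10 (-0.11), Pcdh19 (0.20), Smc3 (-0.16) and Nlgn1 (0.29). For the difference between the ages they included Pcdh10 (-0.28), Pcdh9 (-0.26), Smc3 (-0.36) and Celsr3 (-0.20). All adjusted p lay at or above 0.437. Beside these values, the medians of skeletal muscle markers in the E15 replicates ran from -3.50 (replicate 4) to 3.27 (replicate 8). Without E15 replicates 1, 4 and 8, those farthest from 0 in muscle markers, A_52_P404535 averaged 0.37.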

How the data were processed

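Total RNA from frozen slices of whole brain was amplified and labelled with Cy3 or Cy5, per the labels' protocols. The deposited scanner files hold mean spot intensity and median local background intensity, without normalization, besides processed signals that the scanner software had detrended and dye-normalized by LOWESS, per the file headers. Each deposited log10 ratio divides the red by the green processed signal, as the file headers show, and the deposited matrix repeats these ratios within 0.005.

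Members were found by gene name in the E15 files and matched to the P1 files by probe name. Mean intensities were background-corrected (normexp, offset 50) and loess-normalized within arrays. Outlier spots were set to missing, and spots of a probe were averaged. Arrays of a knockout replicate were averaged, and where 1 dye orientation was missing the probe's mean dye effect was subtracted. This applies to E15 replicates 3 and 4, which have 1 array each. Control levels were taken per animal after Aquantile normalization over all 22 arrays. At P1 the control channels of 1 replicate number were taken as 1 animal.

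Testing used limma 3.58.1 (lmFit, eBayes) in R 4.3.3 with statmod 1.5.0, Benjamini-Hochberg adjustment over all probes and a threshold of 0.05. Control-sharing sets were a random block at E15 (consensus correlation 0.0545) and in the contrast of the ages (0.0488). The labels name the animals biological replicates. The number of animals limits the precision, with 8 labelled knockout and 6 controls at E15 and 4 labelled knockout at P1. The fits were tested on simulated data.

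Named probes were those past the threshold in a cluster (at most 8), the 3 with the lowest p, any C-type probe, and those with the highest and lowest control level. Under the last part fall A_52_P404535 and Pcdha4, Pcdhb17 (A_51_P337771), Pcdhb13 (A_52_P204809), Pcdhb20, Pcdhb2, A_51_P474518 and Pcdhga11. Other lists name up to 4 genes past the threshold, or the 2 with the lowest p, and some of these are not reported here. Pcdh18, Smc1a, Stag1, Stag2, Ctcf, Rest, Smc3 and Rad21, named beyond those 4 between the ages in controls, were chosen after their values were seen. So were the probe pairs and the replicate values of the overlapping gamma probes. Members and lists were chosen with earlier results of these data known. Sequences of the members are not reported here.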

Additional observations from a re-analysis of the deposited data

Results flagged for a closer look

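Of 62 groups of 4 to 8 values checked, over cluster medians and the member probes named in the text, 3 held a value far from the rest. Chance alone marks about 1 in 20 such groups. In knockout over control at E15, the alpha constant-exon probe A_51_P488953 had its lowest value in replicate 8, at -0.32, while the next was 0.14 and the highest 0.51. The opposite-strand Pcdhga11 probe A_51_P424369 had its lowest E15 control level in animal 5, at 5.96 against 6.08 for the next, and its lowest P1 control level in animal 4, at 5.84 against 5.99.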

How the results depend on the processing

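In the knockout comparisons, 0 members passed under each of the 23 alternatives run at E15, 13 at P1 and 25 for the difference between the ages. The direction turned for Pcdhga1 at P1 with median centring (-0.056), for Pcdhgb4 in the difference with outlier spots kept (-0.022), and for Pcdhga4 (A_51_P131879) without the 3 E15 replicates farthest in muscle markers, an alternative chosen after seeing the data (0.0078 at E15, -0.011 in the difference). With the replicate number as a block in the difference, 0 members passed and A_52_P404535 gave -0.50 (limma adjusted p = 0.155). E15 and P1 replicates of 1 number are different animals whose deviations correlated at -0.13, -0.07, 0.13 and 0.15, so the numbers do not pair them. Between the ages in controls, 9 members passed, or 5 with 75th percentile scaling. The 5 lower members became 1 with that scaling, 3 when every channel had to be well above background, 2 with Cy3 channels only, 2 with Cy5 channels only, 2 without E15 controls 1 and 2 (chosen after seeing the data), and 2 to 4 without 1 animal. It was 3 without E15 control 2 or 3, and 2 without P1 control 1 or 4. The shares of all probes called in each direction under these alternatives are not given here, so these counts are not set against a background. The Pcdha4 call was lost with Cy3 channels only (0.33, adjusted p = 0.0618) and in the knockout channels of the same arrays (0.13, adjusted p = 0.253). The 3 alpha constant-exon probes and Pcdhga4 (A_51_P131879) passed under every alternative in which they were tested, with changes of 0.63 to 1.12 (A_52_P632669), 0.81 to 1.73 (A_52_P404535), 0.53 to 0.81 (A_51_P488953) and -0.90 to -0.36. A block by scan day could not be fitted at P1, where all 8 arrays were scanned on 1 day. The causes were not tested.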
